A study of Homo sapiens with 6 samples.

Results

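The 53 genes described here encode the machinery that makes ribosomes and the RNA polymerases that transcribe their RNAs, and they were chosen by gene symbol from the 61155 symbols of a gene count table. All 53 were in the table and all were among the 19521 genes with enough counts to be tested. They hold 8 genes of RNA polymerase I and its factors, 7 of RNA polymerase III and its factors, 3 of the box C/D and 5 of the box H/ACA small nucleolar ribonucleoproteins (snoRNPs), 2 nucleolar phosphoproteins, 10 of the small subunit processome, 5 of late 40S maturation, 3 of the PeBoW complex and 10 other assembly factors of the 60S subunit. Across these genes the abundance of mRNA in S6K1-/- human embryonic stem cells (hESCs) stayed close to that in wild-type (WT) cells. None of the 53 passed the threshold of the study, an adjusted p under 0.001, and 43 of the 53 had a log2 fold change between -0.1 and 0.1.

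Bulk RNA sequencing compared 3 libraries of WT H7 cells, an established hESC line, with 3 libraries of S6K1-/- H7 cells, in which CRISPR/Cas9 was directed at exons 9 and 11 of RPS6KB1, the gene of the ribosomal protein S6 kinase S6K1. Both groups were grown without feeder cells on Matrigel in TeSR-E8 medium and were undifferentiated, although the labels also give a time of week 5 to both and call the genotype a knockdown. The S6K1-/- libraries come from a single clone (clone #1), so that an effect of the deletion and a property of the clone cannot be told apart. Libraries were made from poly(A) RNA with a stranded kit and held from 21896698 to 24473013 counts, of which the members took from 0.911% to 0.944%. Nothing in the labels says that libraries of a group came from separate cultures, and p-values then measure only the spread between these libraries, which may be technical.

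RNA polymerase I transcribes the large precursor of the 18S, 5.8S and 28S ribosomal RNAs in the nucleolus, and RNA polymerase III makes 5S ribosomal RNA and transfer RNAs. The precursor is modified by snoRNPs, folded and cut within the small subunit processome, and assembled with ribosomal proteins into the 40S and 60S subunits by factors that leave the particle before it is used. The pathway is known as a target of mTOR, the kinase that activates S6K1, and of the transcription factor MYC, and pluripotent cells are known for large nucleoli.

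MYC with its partner MAX binds the E-box CACGTG, which is the same on both strands, and for this reason the letters were looked for in the promoters of the members. Promoters were taken from RefSeq (GRCh38.p14), from 250 bases before to 50 bases after the transcription start, and 43 of the 53 members had one. CACGTG was present in 19 of the 43 (44.2%), against 2396 of the 27305 genes with a promoter (8.77%) and 1438 of the 11905 such genes that were tested (12.1%). In 12 of the 19 members the letters lay after the start, in RRP9 across it and in 6 before it. The 60-base windows below are those of the 6 members with the E-box before the start, which follows the last base of each, and show its distance from the start, with the E-box in capitals and the sense strand given. NOP10 holds a second CACGTG, 170 bases before its start, which is not printed.
DDX21, chr10:68956587-68956646, plus strand: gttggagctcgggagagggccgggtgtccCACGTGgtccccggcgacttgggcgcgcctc
NAT10, chr11:34105569-34105628, plus strand: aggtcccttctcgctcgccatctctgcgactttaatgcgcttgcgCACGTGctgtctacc
UTP20, chr12:101280045-101280104, plus strand: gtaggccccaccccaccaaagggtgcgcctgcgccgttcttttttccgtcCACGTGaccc
NOP10, chr15:34343137-34343196, minus strand: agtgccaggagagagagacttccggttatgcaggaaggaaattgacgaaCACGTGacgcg
POLR3A, chr10:78029516-78029575, minus strand: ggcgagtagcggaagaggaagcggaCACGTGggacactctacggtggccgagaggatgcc
UTP4, chr16:69132589-69132648, plus strand: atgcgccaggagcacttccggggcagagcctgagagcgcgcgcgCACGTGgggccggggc
The log2 fold change of S6K1-/- over WT had a median of 0.03 over the 19 members with CACGTG, of which 13 were above 0. It was also 0.03 over the 24 members without it, of which 17 were above 0. Their median levels in WT were 72.8 and 75.1 CPM, which are counts scaled to a common library size by TMM. A match of these letters is a description of the window and does not show that a factor binds there.

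RPS6KB1 was read first as a check of the labels. It had 831, 791 and 777 counts in WT replicates 1, 2 and 3 and 464, 464 and 438 in the S6K1-/- replicates, a log2 fold change of -0.75 with no overlap between the groups. RPS6KB2, the gene of the paralog S6K2, differed by a log2 fold change of 0.07 (95% interval -0.06 to 0.19). The cells were checked against markers of hESCs. POU5F1 had 184, 182 and 177 CPM in WT and 167, 168 and 196 CPM in S6K1-/-, and SOX2 had 299, 292 and 311 CPM in WT and 281, 303 and 291 CPM in S6K1-/-, so that both were abundant in every library and overlapped between the groups. Copies on an alternate contig of the assembly were found for 59.1% of the exon tiles (stretches of 150 bases) of POU5F1. Summed over 12 pluripotency markers the level was 7945 ± 90.4 CPM in WT and 7387 ± 54.8 CPM in S6K1-/- (SD, n = 3 each), without overlap. Of these 12, DNMT3B (log2 fold change -0.35) was lower at 0.001. At 0.05, SALL4 (-0.17) and TDGF1 (-0.15) were also lower and ZFP42 (0.17) was higher. This is 33.3% of the 12 past 0.05, against 13.8% of all genes tested, of which 3.96% passed 0.001. Groups did not overlap for 8 of the 12 (66.7%, 7 lower and 1 higher in S6K1-/-), against 30.7% of all genes tested. The summed level of 8 fibroblast and mesenchyme markers was 700 ± 12.3 CPM in WT and 593 ± 12.4 CPM in S6K1-/-, with LUM and DCN at or near 0. Most of it was THY1 (log2 fold change -0.02), while 4 of the 5 tested, COL1A1, COL1A2, PDGFRB and VIM, were lower at 0.001, with log2 fold changes of -1.79, -0.50, -1.34 and -0.55. The summed level of 8 amnion and trophoblast markers was 51.0 ± 2.25 CPM in WT and 63.9 ± 0.535 CPM in S6K1-/-, with CDX2 and HAND1 at or near 0, and of the 4 tested, GATA2 and TFAP2C were higher and KRT7 was lower at 0.05. Of these 2 lists, 3 and 5 genes had a mean under 1 CPM. The 9 mesoderm and endoderm markers summed to 21.1 ± 2.14 CPM in WT and 18.7 ± 0.805 CPM in S6K1-/-, with 7 genes under 1 CPM, and of the 5 tested, MIXL1 was higher and FOXA2 and CXCR4 were lower at 0.05. The 8 neuroectoderm markers summed to 475 ± 11.7 and 463 ± 9.46 CPM, with 5 under 1 CPM. Most of this sum was NES (-0.06), while PAX6 (0.76) and SOX1 (1.29) were higher at 0.05 and SIX3 had 0.15. These markers were named after their values were seen. The part of these differences in the values below was not tested.

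Read against all genes, the members moved little. With edgeR's quasi-likelihood test and Benjamini-Hochberg adjustment over all genes tested, 0 of the 53 passed 0.001, where 3.96% of all genes did (1.42% higher and 2.54% lower in S6K1-/-), and DESeq2's Wald test also gave 0. At the looser threshold of 0.05, 2 members were higher, RRN3 and WDR43, and none was lower (3.77% of members, against 13.8% of all genes, 5.47% higher and 8.31% lower), and 8 had an unadjusted p under 0.05 (26.4% of all genes did). The median size of the log2 fold change, whatever its sign, was 0.049 for members and 0.111 for all genes tested, and 81.1% of members but 46.5% of all genes lay within 0.1 of 0. The median SE was also smaller for members, at 0.047 against 0.083, and its part in these sizes was not tested. The median with its sign was 0.03, with 35 members above 0 and 18 below, and the median of all genes was -0.00. Scaling to library totals instead of TMM factors brought the members above 0 to 30 and their median to 0.01.

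The precision behind these values was high for most members. The 95% interval of the log2 fold change lay within 0.25 of 0 for 47 of the 53 members, and within 0.5 for 50. The exceptions at 0.5 were RRN3, NOP2 and POLR3GL, the only members with a mean under 10 CPM. The coefficient of variation among replicates had a median of 3.50% in WT and 4.09% in S6K1-/-. In simulated data with the depth and spread of these libraries, 20.1% of 194 genes changed by 0.3 on the log2 scale and 70.1% of 194 genes changed by 1 were called at 0.001, and 44.3% and 83.0% at 0.05. The changed genes were drawn at random from all genes tested, including those with low counts, so that these shares do not describe the members.

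**Figure D1:**
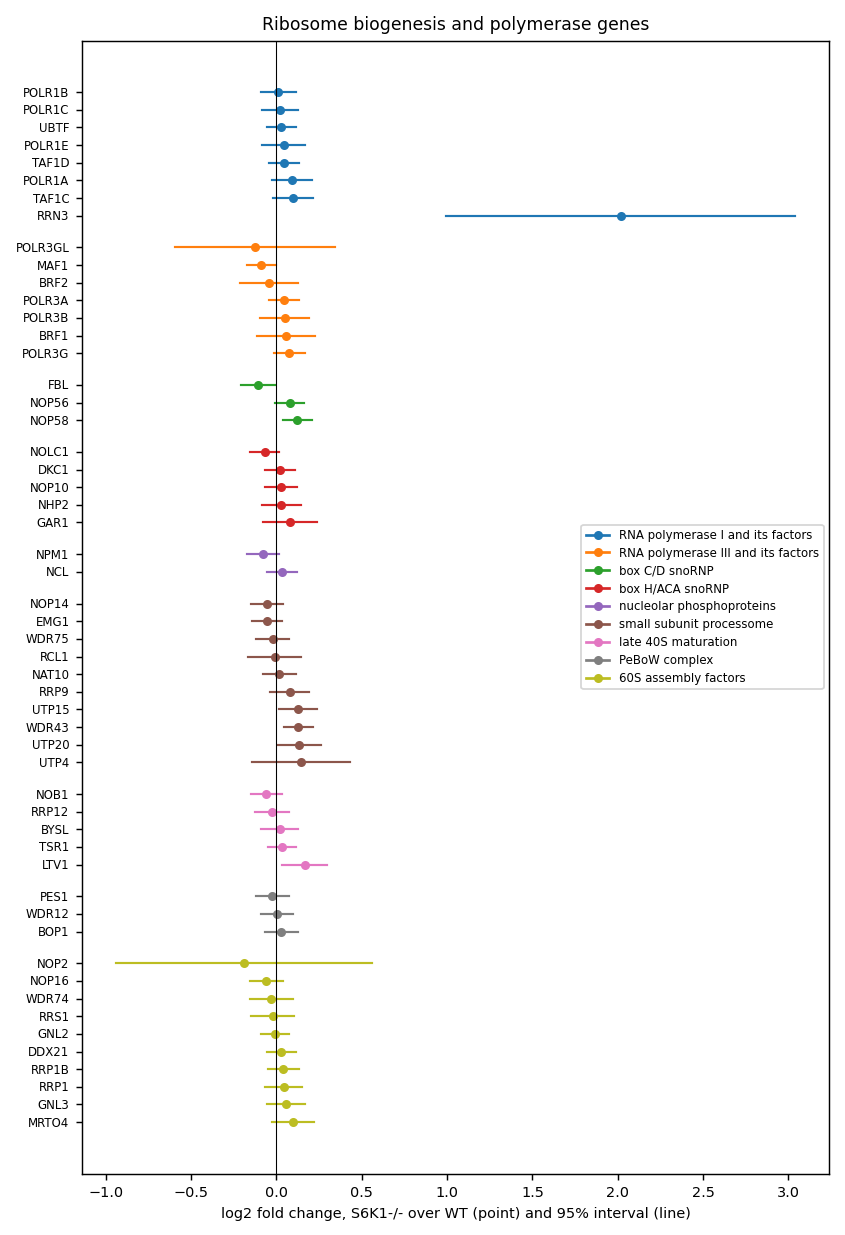
The log2 fold change of S6K1-/- over WT (points) and its 95% interval (lines) are plotted for the 53 members, grouped by role. Apart from RRN3 at 2.02, the points lie between -0.19 and 0.17, and the widest intervals are those of RRN3, NOP2 and POLR3GL.

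Members whose libraries did not overlap were counted as well, and the difference of their share from that of all genes was not tested. The 3 libraries of S6K1-/- lay above the 3 of WT for NOP58, NOP56, LTV1, WDR43 and UTP15, and below them for FBL, NOLC1, NPM1, MAF1, EMG1 and NOP14, which is 11 of 53 members (20.8%), against 30.7% of all genes tested (14.0% above and 16.7% below). With DESeq2's size factors the split was 7 above and 2 below, where 2919 and 3136 of the 19521 genes tested were, and with library totals 5 above and 7 below, where 2198 and 3732 were. NOP58, NOP56, LTV1, WDR43 and UTP15 stayed above, and MAF1 and NPM1 below, under all 3 scalings. Genes on the opposite strand covered 55.5% of the exon bases of EMG1 and 20.7% of those of NOP14, and at least 20% in 6 members. The strand setting of the counts is not given, and the part of this overlap was not tested. In bulk RNA, fewer cells of a type and less RNA per cell cannot be told apart.

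RNA polymerase I and its factors came to 531 ± 6.58 CPM in WT and 553 ± 10.0 CPM in S6K1-/- (SD, n = 3 each), summed over the 8 genes. The sum was 539, 529 and 526 CPM in WT and 564, 549 and 545 CPM in S6K1-/-, so that the groups did not overlap, and without RRN3 it was 3.44% higher in S6K1-/-, again without overlap. All 8 genes were above 0 on the log2 scale, but 6 of 8 were with library totals, and the sums then overlapped. UBTF, which opens the ribosomal DNA for transcription, had 117, 120 and 114 CPM in WT and 121, 118 and 118 CPM in S6K1-/- (log2 fold change 0.03, 95% interval -0.05 to 0.11). POLR1A, the largest subunit, had 100, 85.3 and 92.5 CPM in WT and 102, 100 and 94.1 CPM in S6K1-/- (0.09, interval -0.03 to 0.21, and from 0.03 without WT replicate 2 to 0.16 without WT replicate 1). These groups overlapped for both genes. Among the subunits of the promoter factor SL1, TAF1C had 55.9, 51.8 and 49.9 CPM in WT and 55.7, 59.5 and 53.4 CPM in S6K1-/- (0.10, adjusted p = 0.273, edgeR's quasi-likelihood test, and from 0.06 without S6K1-/- replicate 2 to 0.15 without WT replicate 1). TAF1D, the most abundant gene of the class, had 141, 150 and 148 CPM in WT and 153, 145 and 155 CPM in S6K1-/- (0.04, adjusted p = 0.562 from the same test). The other subunits POLR1B, POLR1C and POLR1E had log2 fold changes of 0.01, 0.02 and 0.04.

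RRN3, which encodes the initiation factor TIF-IA that joins RNA polymerase I to its promoter, had the largest fitted change of the members and the least even libraries. Its counts were 27, 24 and 30 in WT and 179, 119 and 21 in S6K1-/-, or 1.11, 0.976 and 1.29 CPM in WT and 7.62, 4.97 and 0.965 CPM in S6K1-/-. S6K1-/- replicates 1 and 2 lay above every WT library and replicate 3 lay below every one. The log2 fold change was 2.02 (SE 0.479, 95% interval 0.99 to 3.04, adjusted p = 0.0103, edgeR's quasi-likelihood test). It was 1.42 without S6K1-/- replicate 1 (adjusted p = 0.0608), 2.49 without S6K1-/- replicate 3 (adjusted p = 5.43e-06), and 2.02 with DESeq2's Wald test (adjusted p = 0.0953). RRN3 lies on chromosome 16 of GRCh38 from 15060033 to 15094311, on the minus strand, and all of its 101 exon tiles of 150 bases (100%) had an equally good copy on an alternate contig of the assembly, and 9.90% had one on a chromosome. Among the members, copies on an alternate contig were found for RRN3 and UTP4 only. Whether the authors' index held those contigs is not given in the sources used here, and the part of the copies in the counts was not tested. The 2 RRN3 pseudogenes, looked up after these values were seen, with counts enough to be tested had log2 fold changes of -0.05 (RRN3P1, with such copies for 13.3% of its tiles) and 0.09 (RRN3P3).

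**Figure D2:**
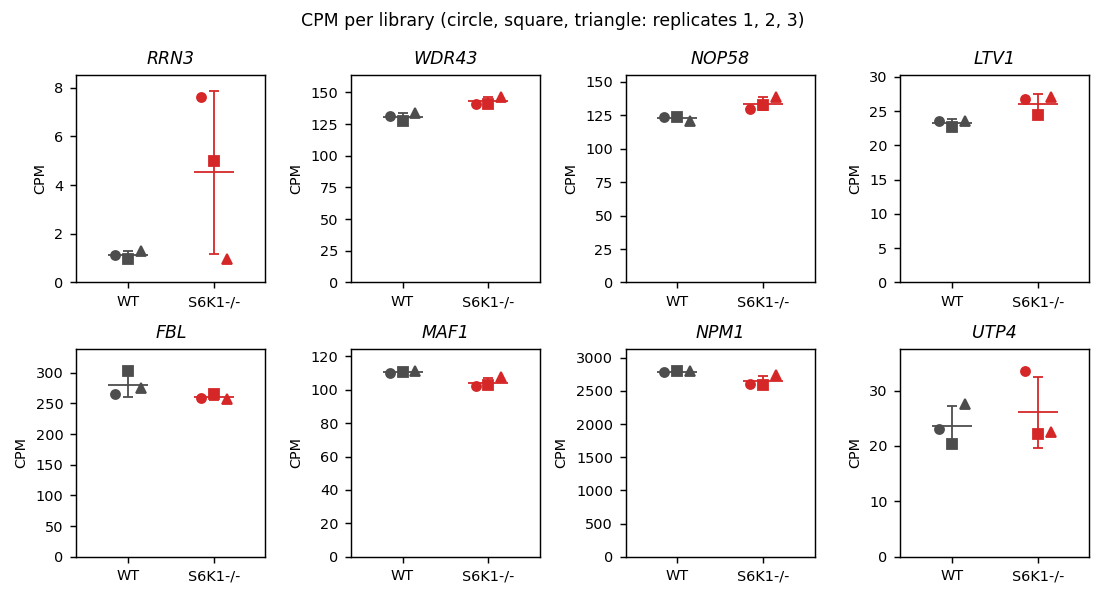
CPM in each library is plotted for 8 members (linear axes from 0, circle, square and triangle for replicates 1, 2 and 3), with the mean and SD of each group (n = 3). RRN3 and UTP4 spread widely in S6K1-/-, whereas WDR43, NOP58 and LTV1 lie slightly higher and FBL, MAF1 and NPM1 slightly lower than in WT.

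RNA polymerase III members summed to 535 ± 4.79 CPM in WT and 548 ± 17.9 CPM in S6K1-/-, with overlap. MAF1, the repressor of RNA polymerase III that mTOR signalling is known to inhibit by phosphorylation, had 110, 111 and 111 CPM in WT and 102, 103 and 107 CPM in S6K1-/-. It was lower in all 3 S6K1-/- libraries, with a log2 fold change of -0.09 (SE 0.039, 95% interval -0.17 to -0.00) that did not pass 0.05 (adjusted p = 0.165, edgeR's quasi-likelihood test). POLR3G and POLR3GL encode alternative forms of one subunit, of which POLR3G is known to mark pluripotent cells. POLR3G had 295, 306 and 302 CPM in WT and 317, 303 and 331 CPM in S6K1-/- (0.07, adjusted p = 0.284), and POLR3GL had 29, 38 and 31 counts in WT and 22, 34 and 30 in S6K1-/- (-0.13, interval -0.60 to 0.34). Per kilobase of transcript, the level of POLR3G was 80.2 ± 8.89 times that of POLR3GL in WT and 94.5 ± 23.5 times in S6K1-/- (SD, n = 3 each), and the groups overlapped. Another gene on the same strand covered 21.1% of the exon bases of POLR3GL. The catalytic subunits POLR3A and POLR3B and the initiation factor subunits BRF1 and BRF2 had log2 fold changes of 0.04, 0.05, 0.06 and -0.04.

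The box C/D snoRNP, which methylates ribosomal RNA, had members on both sides of 0. NOP58, a core protein, had 3013, 3038 and 2803 counts in WT and 3041, 3173 and 3022 in S6K1-/-, or 124, 124 and 121 CPM against 130, 133 and 139 CPM. It was higher in all 3 S6K1-/- libraries, with a log2 fold change of 0.12 (SE 0.040, 95% interval 0.04 to 0.21, adjusted p = 0.0564, edgeR's quasi-likelihood test). Its partner NOP56 had 257, 258 and 241 CPM in WT and 265, 265 and 268 CPM in S6K1-/-, also without overlap (0.08, adjusted p = 0.231). FBL, the methyltransferase fibrillarin, had 265, 303 and 274 CPM in WT and 259, 265 and 257 CPM in S6K1-/-. Its groups lay apart by less than 1 CPM (-0.11, SE 0.048, adjusted p = 0.160), and they overlapped with DESeq2's size factors. With 1 library left out its log2 fold change ran from -0.05 without WT replicate 2 to -0.14 without WT replicate 1. The sum of the 3 genes was 656 ± 25.1 CPM in WT and 660 ± 5.21 CPM in S6K1-/-.

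The box H/ACA snoRNP turns uridine into pseudouridine and its proteins also bind telomerase RNA. Its pseudouridine synthase DKC1 had a log2 fold change of 0.02 (95% interval -0.07 to 0.11), and GAR1, NHP2 and NOP10 had 0.08, 0.03 and 0.02. NOLC1, a nucleolar chaperone of snoRNPs, had 284, 283 and 296 CPM in WT and 281, 264 and 277 CPM in S6K1-/- (-0.07, adjusted p = 0.305). No gene of this class passed 0.05.

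The 2 nucleolar phosphoproteins had the highest counts of the members and summed to 4477 ± 18.2 CPM in WT and 4364 ± 74.0 CPM in S6K1-/-. These sums did not overlap, except with DESeq2's size factors. NPM1, nucleophosmin, a histone and ribosomal protein chaperone, had 67725, 68667 and 64997 counts in WT and 61271, 61869 and 59531 in S6K1-/-, or 2782, 2793 and 2798 CPM against 2609, 2584 and 2735 CPM. It was lower in every S6K1-/- library (-0.08, SE 0.043, 95% interval -0.17 to 0.01, adjusted p = 0.269, edgeR's quasi-likelihood test). NCL, nucleolin, had 1706, 1694 and 1658 CPM in WT and 1696, 1755 and 1712 CPM in S6K1-/- and overlapped (0.03, adjusted p = 0.702). All 53 members summed to 9300, 9393 and 9288 CPM in WT and 9250, 9176 and 9456 CPM in S6K1-/-, a difference in means of -0.351% with overlap, whose sign turned without WT replicate 2 or S6K1-/- replicate 2. Without NPM1 and NCL the sums were 4850 ± 49.5 CPM in WT and 4930 ± 87.0 CPM in S6K1-/-.

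In the small subunit processome, the particle that folds and cuts the 18S part of the precursor, WDR43 was the only gene to pass 0.05. WDR43, a subunit of its UTP-A subcomplex, had 3194, 3132 and 3103 counts in WT and 3314, 3374 and 3190 in S6K1-/-, or 131, 127 and 134 CPM against 141, 141 and 147 CPM. The libraries did not overlap and the log2 fold change was 0.13 (SE 0.039, 95% interval 0.04 to 0.21, adjusted p = 0.0416, edgeR's quasi-likelihood test). This call was lost in each of the 6 fits that left out a library (adjusted p from 0.0551 to 0.111) and with library totals (adjusted p = 0.0889). UTP15, of the same subcomplex, had 36.2, 36.2 and 37.7 CPM in WT and 39.9, 38.3 and 42.0 CPM in S6K1-/- (0.13, adjusted p = 0.131). UTP20 had 100, 83.5 and 95.1 CPM in WT and 108, 98.7 and 99.8 CPM in S6K1-/-, with overlap (0.13, adjusted p = 0.164). With 1 library left out its log2 fold change ran from 0.06 without WT replicate 2 (adjusted p = 0.484) to 0.20 without WT replicate 1 (adjusted p = 0.0471). UTP4, also of UTP-A, had 560, 502 and 640 counts in WT and 787, 529 and 492 in S6K1-/-, and only S6K1-/- replicate 1 lay above WT (0.14, interval -0.15 to 0.43, and -0.08 without that library). Copies on an alternate contig were found for 78.2% of its 142 exon tiles. The methyltransferase EMG1 and NOP14 had -0.06 each, the acetyltransferase NAT10 0.02, RRP9 0.08, WDR75 -0.02 and RCL1 -0.01. UTP4 and NOP2, below, were singled out after their values were seen.

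Of the late 40S factors, LTV1, which leaves the particle before its final maturation, had 23.6, 22.7 and 23.6 CPM in WT and 26.8, 24.5 and 27.1 CPM in S6K1-/-. Its groups did not overlap (0.17, SE 0.061, 95% interval 0.03 to 0.30, adjusted p = 0.0924, edgeR's quasi-likelihood test), and other genes on the same strand covered 34.7% of its exon bases. TSR1, the most abundant gene of the class, had 132, 135 and 133 CPM in WT and 141, 133 and 134 CPM in S6K1-/- (0.03, adjusted p = 0.670). The endonuclease NOB1, RRP12 and BYSL had -0.06, -0.03 and 0.02.

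The PeBoW complex, which processes the 28S and 5.8S part of the precursor, had nearly equal summed levels, at 295 ± 4.85 CPM in WT and 295 ± 6.69 CPM in S6K1-/-. BOP1 had 86.0, 89.2 and 84.3 CPM in WT and 83.3, 90.8 and 90.6 CPM in S6K1-/- (0.03, 95% interval -0.07 to 0.12). PES1 had 114, 125 and 115 CPM in WT and 112, 120 and 115 CPM in S6K1-/- (-0.03, interval -0.12 to 0.07). WDR12 had a log2 fold change of 0.00 (interval -0.09 to 0.10).

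None of the 10 other 60S factors passed 0.05 and none had groups that lay apart. MRTO4, a factor related to the stalk protein P0, had 56.2, 63.8 and 59.0 CPM in WT and 63.1, 59.8 and 68.9 CPM in S6K1-/- (0.10, adjusted p = 0.313, and from 0.05 without S6K1-/- replicate 3 to 0.15 without WT replicate 2). The RNA helicase DDX21, the most abundant of them, had 455, 462 and 472 CPM in WT and 477, 455 and 485 CPM in S6K1-/- (0.03, adjusted p = 0.720). The GTPases GNL3 (nucleostemin) and GNL2 had 0.06 and -0.01, RRP1 and RRP1B 0.04 each, NOP16 -0.06, WDR74 -0.03 and RRS1 -0.02. NOP2, a methyltransferase of 28S ribosomal RNA, had only 14, 10 and 20 counts in WT and 12, 17 and 8 in S6K1-/-. Its log2 fold change of -0.19 had a 95% interval of -0.94 to 0.56, the widest of the class. A read-through gene on the same strand (ENSG00000285238) covered 54.4% of its exon bases, so that the counts of NOP2 are uncertain.

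**Figure D3:**
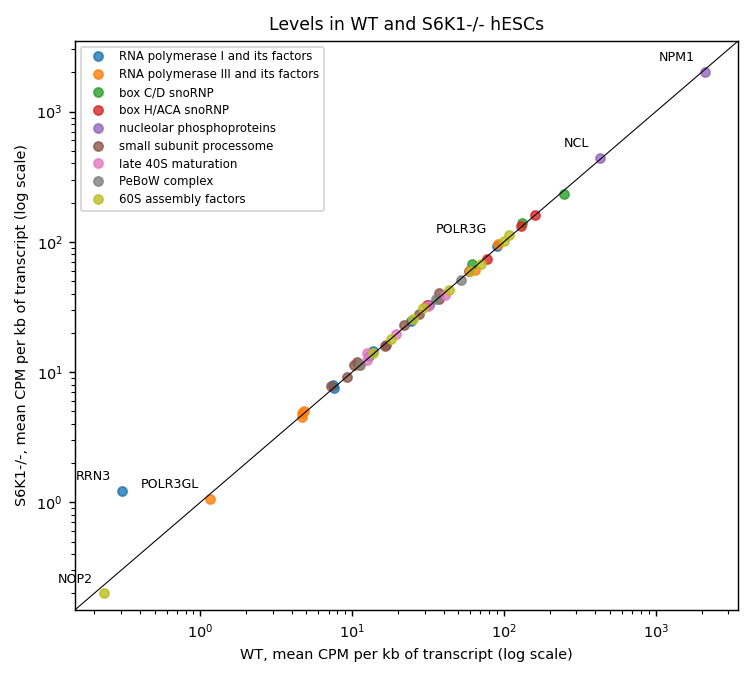
The mean level in S6K1-/- is plotted against that in WT for the 53 members, in CPM per kilobase of the canonical transcript on log axes. Members follow the line of equality from NOP2 at 0.232 to NPM1 at 2114 in WT, with RRN3 above it. A read-through gene overlaps NOP2 and copies of RRN3 lie on an alternate contig, so that both levels are uncertain.

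Levels differed far more between members than between the genotypes. Per kilobase of transcript, the highest levels in WT were those of NPM1 (2114 CPM per kilobase), NCL (430), FBL (250), NOP10 (159), NOP56 (132) and NHP2 (129), and the median member was at 27.6. At the other end were POLR3GL (1.15), RRN3 (0.304) and NOP2 (0.232). Copies on an alternate contig (RRN3) and genes on the same strand (NOP2 and POLR3GL) make these levels uncertain, and their part was not tested. Among the members, 20 had a mean over 100 CPM, 30 lay between 10 and 100 and 3 lay under 10. Counting without RRN3, UTP4, NOP2 and POLR3GL left 49 members, of which 1 passed 0.05, with a median log2 fold change of 0.03.

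The rest of the pathway was read from lists of 159 other genes of the polymerases, snoRNP assembly and the exosome, the 2 subunits and the MYC family, of which 155 were tested. At 0.001, 1 was higher and 1 lower, and at 0.05, 3 were higher and 3 lower (3.87%, against 13.8% of all genes). SURF6, a nucleolar factor of 60S assembly, had 55.0, 55.2 and 54.8 CPM in WT and 68.6, 75.9 and 69.3 CPM in S6K1-/-, and it rose by 0.37 on the log2 scale (SE 0.047, adjusted p = 5.51e-05, edgeR's quasi-likelihood test). It passed 0.001 in every alternative fit. Higher at 0.05 were also MGA, a repressor that pairs with MAX (0.30, adjusted p = 0.00301), and SNAPC4, a subunit of the complex for small nuclear RNA genes (0.24, adjusted p = 0.00913).

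Lower at 0.05 were MXD4, an antagonist of MYC, SNAPC2 of the same small nuclear RNA complex (-0.30, adjusted p = 0.0171) and ZNHIT6, an assembly factor of the box C/D snoRNP (-0.23, adjusted p = 0.0197). MXD4 had 22.7, 24.6 and 23.8 CPM in WT and 18.5 CPM in each S6K1-/- library, and it fell by 0.36 (SE 0.061, adjusted p = 8.98e-04, edgeR's quasi-likelihood test), a call at 0.001 that was lost in 9 of the alternatives, among them each of the 6 fits without a library (adjusted p from 0.00178 to 0.00624). SNAPC2 did not pass 0.05 without WT replicate 2 or S6K1-/- replicate 1 (adjusted p = 0.0508 and 0.0965), and ZNHIT6 did not without WT replicates 2 or 3 or S6K1-/- replicates 1 or 3 (from 0.0523 to 0.0867). MYC itself had 98.3, 103 and 93.0 CPM in WT and 91.2, 87.3 and 90.2 CPM in S6K1-/-. Its libraries did not overlap, with a log2 fold change of -0.13 (95% interval -0.22 to -0.04, adjusted p = 0.0679). With 1 library left out the adjusted p of MYC ran from 0.0468 without WT replicate 3 to 0.1998 without S6K1-/- replicate 2, and its log2 fold change from -0.16 to -0.09. MYCN had 56.0, 59.1 and 50.6 CPM in WT and 53.2, 53.8 and 49.1 CPM in S6K1-/-, with overlap (-0.09, interval -0.21 to 0.04, and from -0.03 without WT replicate 2 to -0.14 without WT replicate 3). The difference between members and these other genes was not tested. Over the 155 genes the median log2 fold change was 0.00, its median size without regard to sign 0.048, and 79 lay above 0.

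**Figure D4:**
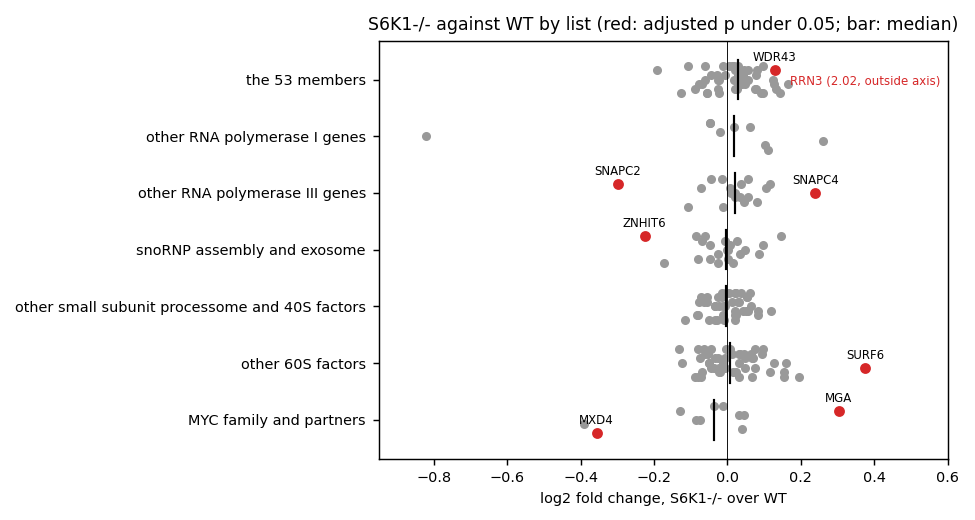
Each point is the log2 fold change of S6K1-/- over WT of 1 gene, for the members and for the other lists of the pathway, with the median of each list as a bar and genes with an adjusted p under 0.05 in red. The medians lie near 0 in every list, and the red genes are WDR43 and, outside the axis, RRN3 among the members, and SURF6, MGA, SNAPC4, MXD4, SNAPC2 and ZNHIT6 elsewhere.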

How the data were processed

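Total RNA of 3 WT and 3 S6K1-/- hESC samples was sequenced as paired reads of 150 bases. Following their methods, the authors trimmed reads with Trim Galore 0.6.5, aligned them to GRCh38 with Bowtie2 2.4.5, which does not align across splice junctions, and counted them per gene with featureCounts. The authors deposited raw counts per gene symbol, without normalization. The annotation release, strand setting and contigs of the index are not given in the sources used here, so that overlapping, antisense and copied genes are uncertain. A second deposited table holds the authors' own comparison by DESeq2 1.37.4 (mean normalized counts, log2 fold changes, standard errors, statistics, p-values and calls) and was not used.

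Genes passing filterByExpr were tested with edgeR 4.0.16 (glmQLFit and glmQLFTest, R 4.3.3) after TMM normalization, with genotype as the only factor, and p-values were adjusted by Benjamini-Hochberg over 19521 genes. CPM values use TMM library sizes, errors are SD over n = 3 unless given as SE, and intervals are 95% intervals of the log2 fold change. The threshold was 0.001, as in the study, with 0.05 beside it. Common dispersion was 0.00216. The steps were tested on simulated data. Replicates of a group differed by more than counting noise (chi-square values of 2.23 to 4.51 per degree of freedom). Deviations of libraries with the same number had correlations of 0.018, 0.0017 and 0.032, against -0.052 to 0.034 for libraries with different numbers. No signal shared by number was seen, which does not settle whether the numbers pair the libraries.

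Positions are those of GENCODE 44 on GRCh38. Exons were cut into tiles of 150 bases every 25 bases and mapped with minimap2 2.31 to find equally good copies. Members and lists were chosen with earlier results of these data known. Values in every library are given for the 15 members with the smallest p, the member with the smallest p and the most abundant member of each class, POLR3G and POLR3GL, pathway genes past 0.001, MYC, MYCN, POU5F1 and SOX2, and also for UBTF, NCL, UTP4 and NOP2, chosen after their values were seen. Alternatives were DESeq2's size factors and Wald test (DESeq2 1.42.0), library totals, no filter, at least 10 counts in every library, a replicate block, each library left out and a threshold of 0.05. Counts without RRN3, UTP4, NOP2 and POLR3GL, and class sums under other scalings, were added after seeing the data.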

Additional observations from a re-analysis of the deposited data

How the results depend on the processing

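Counts depended on the threshold and the filter, and the cause of each change was not tested. Over all genes, 496 were lower and 278 higher in S6K1-/- at 0.001, against 982 and 591 without the filter on low counts, 1622 and 1067 at a threshold of 0.05, and 313 to 445 and 175 to 235 with 1 library left out (313 without S6K1-/- replicate 3, 175 and 179 without S6K1-/- replicates 1 and 2). Of the members, 0 were higher at 0.001, against 1 without the filter, 2 at 0.05, and 0 to 1 with 1 library left out (RRN3, without S6K1-/- replicate 3). The 2 higher at 0.05 became 1 with library totals and with DESeq2's Wald test and 0 to 2 with 1 library left out, being 0 without S6K1-/- replicate 1, 1 without WT replicates 2 or 3 or S6K1-/- replicates 2 or 3, and 2 without WT replicate 1. WDR43 passed 0.05 in no fit with 1 library left out. The 2 without WT replicate 1 include UTP20 (adjusted p = 0.0471, edgeR's quasi-likelihood test) and not WDR43. No member was lower at 0.001 or 0.05 under the alternatives run.

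Of the other pathway genes, the 1 lower at 0.001 became 0 with the Wald test or the size factors of DESeq2, the replicate block and each library left out, and 3 at 0.05. The 1 higher became 2 with the Wald test, without the filter and with the block, and 3 at 0.05. At 0.05, the 3 lower became 5 with library totals, 1 with the Wald test and 1 to 3 with 1 library left out (1 without WT replicate 2), and the 3 higher became 5 without the filter. With 1 library left out, the log2 fold change ran from -0.46 to 0.13 for NOP2, -0.050 to 0.018 for PES1, -0.236 to 0.045 for POLR3GL, -0.108 to 0.0055 for POU5F1 and -0.080 to 0.272 for UTP4, and so changed sign, as did the log2 ratio of the summed members (-0.018 to 0.0041). BOP1, DDX21, NCL, NOLC1, TAF1D, TSR1, UBTF, SOX2 and RPS6KB2 kept their sign and moved by over 1.5 times with at least 1 library left out, without passing 0.05. So did FBL, MRTO4, POLR1A, TAF1C and MYCN, whose ranges are given above. The median of the members ran from 0.01 to 0.04 over all settings. The replicate block gave 423 lower and 241 higher genes over all genes and the same counts of members at both thresholds. NOP2 and POLR3GL had at most 38 counts in a library, and RRN3 had the widest spread among S6K1-/- libraries.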

Other observations

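Copies on alternate contigs were found for at least 10% of the exon tiles of 9 genes of the member and pathway lists, 2 of them members. The 4 pathway genes that had too few counts to be tested were all among these 9. AATF, BDP1 and ZNHIT3, whose tiles all had such copies (100%), had at most 2 counts in any library, and WDR46 had 13, 1 and 1 counts in WT and 0 in each S6K1-/- library, with copies for 98.6% of its tiles. DDX24 (100% of tiles) had 198, 701 and 567 counts in WT and 193, 542 and 821 in S6K1-/-, and POLR1H (91.3% of tiles) had 18, 12 and 20 counts in WT and 20, 1 and 6 in S6K1-/-. DDX52 (85.7% of tiles) had more even counts, at 220, 212 and 221 in WT and 233, 183 and 189 in S6K1-/-. The part of the copies in these counts was not tested.

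Small nucleolar RNAs are not measured as such in poly(A) RNA, but the transcripts of their host genes are. Of 25 such host genes tested (GAS5 and SNHG genes, a list chosen after the other results were seen), 0 passed 0.001 with edgeR's quasi-likelihood test, 6 had an unadjusted p under 0.05 (26.4% of all genes did), and at an adjusted 0.05, 4 were called (16.0%, against 13.8% of all genes). Of these, SNHG6 (log2 fold change 0.20) and SNHG7 (0.16) were higher and SNHG5 (-0.18) and SNHG30 (-0.35) were lower.

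The genes next to SURF6 in the surfeit cluster were read after its value was seen. None of SURF1 (-0.14), SURF2 (0.08), SURF4 (-0.02), MED22 (0.09) and RPL7A (0.00) passed an adjusted p of 0.05.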
